A study of Mus musculus with 6 samples.

Results

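Cytosolic translation factors load ribosomes onto mRNA (initiation factors, eIF) and move them along it (elongation factors, eEF). Their genes were chosen by symbol, as every row starting with Eif1 to Eif6, Eef1 or Eef2. This gave 64 of 32531 gene rows, of which 55 have an Eif and 9 an Eef symbol. The counts come from RNA-seq of the hypothalamus of adult, untreated control mice of 1 line, Lhx5-TRAP DT154, which carries Lhx5-EGFP/Rpl10a. In translating ribosome affinity purification (TRAP), an EGFP tag on ribosomal protein L10a marks the ribosomes of cells in which the driver, here that of the transcription factor gene Lhx5, is active. RNA pulled down with antibodies to EGFP (IP, 3 libraries) was set against RNA that the labels call unbound and the titles call input (3 libraries). Both groups come from mice with the transgene, and the labels give neither sex nor the number of animals behind a library. Nothing says that replicates are separate animals, so p-values measure the spread between these samples, which may be technical.

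Initiation begins when eIF1 and eIF1A help the small ribosomal subunit find the start codon and eIF2, loaded with GTP by eIF2B, brings the initiator tRNA. eIF4F binds the cap and unwinds the leader of the mRNA, eIF3 organises the small subunit, and eIF5 and eIF5B allow the large subunit to join. In elongation eEF1A delivers aminoacyl-tRNA, the eEF1B subunits recharge eEF1A, and eEF2 moves the ribosome forward. Neurons are known to replace eEF1A1 by eEF1A2 as they mature, and phosphorylation of eIF2 and of eEF2 is known to regulate translation at synapses.

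Many mRNAs of the translation machinery begin with a C followed by pyrimidines, a sequence through which mTORC1 signalling controls their translation. The windows below run from 10 bases before to 20 bases after the start annotated by RefSeq (GRCm38.p6), 5′ to 3′ on the gene's strand. They are shown for 3 elongation factor genes, for the eIF1 gene Eif1b and for the X and Y copies of the eIF2 gamma subunit, and capitals mark a C followed by at least 5 pyrimidines.
Eef1a1, chr9:78481705-78481734, minus strand: ctccgCCCTCTTCCCgagggtgggggagaa
Eef1a2, chr2:181156996-181157025, minus strand: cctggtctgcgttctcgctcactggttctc
Eef2, chr10:81176621-81176650, plus strand: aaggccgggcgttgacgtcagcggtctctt
Eif1b, chr9:120492596-120492625, plus strand: gcgcggggctaaatacgcggcgccggccat
Eif2s3x, chrX:94212632-94212661, minus strand: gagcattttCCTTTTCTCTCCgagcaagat
Eif2s3y, chrY:1010585-1010614, plus strand: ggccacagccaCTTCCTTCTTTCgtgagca
Eef1a1 has such a run and Eef1a2 has none in this window, and both copies of the gamma subunit have one. A run counted wherever it lay in the window, so it need not begin the mRNA. In Eef1a1 and Eif2s3x it begins before the annotated start. The windows of Eef1a2 and Eef2 end on a C followed only by pyrimidines, so a run cut off there would be missed. Only the gene's strand was searched. A run was present in 24.6% of 65 windows of translation factor genes, in 53.8% of 65 windows of ribosomal protein genes and in 22.0% of all 32851 windows. A window was found for 50 of the translation factor genes, 14 of them with a run.

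Counts on genes ranged from 32471045 to 46293837 per IP library and from 32926146 to 40768577 per unbound library. Levels are given as CPM, a gene's share of the library's counts after TMM scaling over all gene rows. The summed level of 20 pan-neuronal markers was 20480 to 22040 CPM in IP and 15400 to 17360 CPM in unbound RNA. Of these markers 11 rose, 3 fell (Snhg11, Dcx and Map2) and 6 were not called. Snap25 alone had a mean of 12130 of 21470 CPM in IP and 8285 of 16450 CPM in unbound RNA. The pan-neuronal scale used below, which is this sum, thus rests largely on Snap25. Summed astrocyte, oligodendrocyte and microglia markers were 6.81, 11.3 and 5.13 times as high in unbound as in IP RNA. Of 10 markers each, 10, 10 and 9 fell in IP, and none was at 0 in all IP libraries. Unbound replicate 3 stood apart: its 11 hypothalamic markers summed to 12.2 CPM, where unbound replicates 1 and 2 had 193 and 115 CPM and IP libraries 257 to 304 CPM. Its oligodendrocyte markers summed to 7015 CPM against 3829 and 3653 CPM. Of the 62 translation factors tested, 37 had their highest unbound level in that library. The part of glial RNA in the results below was not tested. In bulk RNA, fewer cells of a type and less RNA per cell cannot be told apart.

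Translation factor mRNAs differed little between IP and unbound RNA, and more were higher than lower in IP on the TMM scale, a direction that turned over on the scale of pan-neuronal markers. Of the 64 genes, 62 passed the filter on low counts. In IP 18 were higher (29.0%) and 4 lower (6.45%) at an adjusted p under 0.05 (edgeR's quasi-likelihood test, Benjamini-Hochberg adjustment over 16991 genes), and 40 did not pass. Over all genes tested 21.1% were higher and 23.2% lower, and over protein-coding genes 23.5% and 20.7%. The median log2 fold change, IP over unbound, was 0.12 for the translation factors, -0.01 over all genes and 0.06 over protein-coding genes. The called values ran from -2.33 for Eif4ebp1 to 1.21 for Eef1e1. The groups did not overlap for 23 genes with IP above and 9 with IP below, against 27.1% and 28.7% of all genes tested. Replicates lay close together, with a median coefficient of variation of 8.49% in IP and 11.7% in unbound libraries, against 16.8% and 17.7% over all genes tested. The genes were not matched for level, so the smaller spread cannot be read as particular to translation factors.

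Scaled on the pan-neuronal markers, 4 translation factors were higher and 20 lower, where 7.38% and 35.2% of all genes tested were. The 4 were Eif1a, Eif1b, Eif1ax and Eef1e1. That scale moved the median of all genes to -0.40 and that of the translation factors to -0.26, so their distance was 0.14, against 0.13 on the TMM scale. Leaving the noncoding Snhg11 out of those markers gave 3 higher and 28 lower (4.9% and 41.0% of all genes). Without unbound replicate 3 the counts were 23 higher and 5 lower (24.0% and 25.8% of all genes). With sequencing lane as a term they were 18 and 3 (19.6% and 22.1% of all genes). Within lane 2 alone, 2 libraries against 2, 5 were higher and 3 lower (7.49% and 14.7% of all genes). A block for the replicate number gave 20 and 5 (23.3% and 23.6% of all genes). Scaled on library size alone, Eif1ad, Eif2b1, Eif3g, Eif4e2 and Eif4h lost their call, at 0.36 to 0.43 (edgeR adjusted p from 0.0546 to 0.0748). Eif1a, Eif1b, Eef1e1, Eef2k, Eif2ak2 and Eif2s3y kept their call in all 21 other fits.

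**Figure D1:**
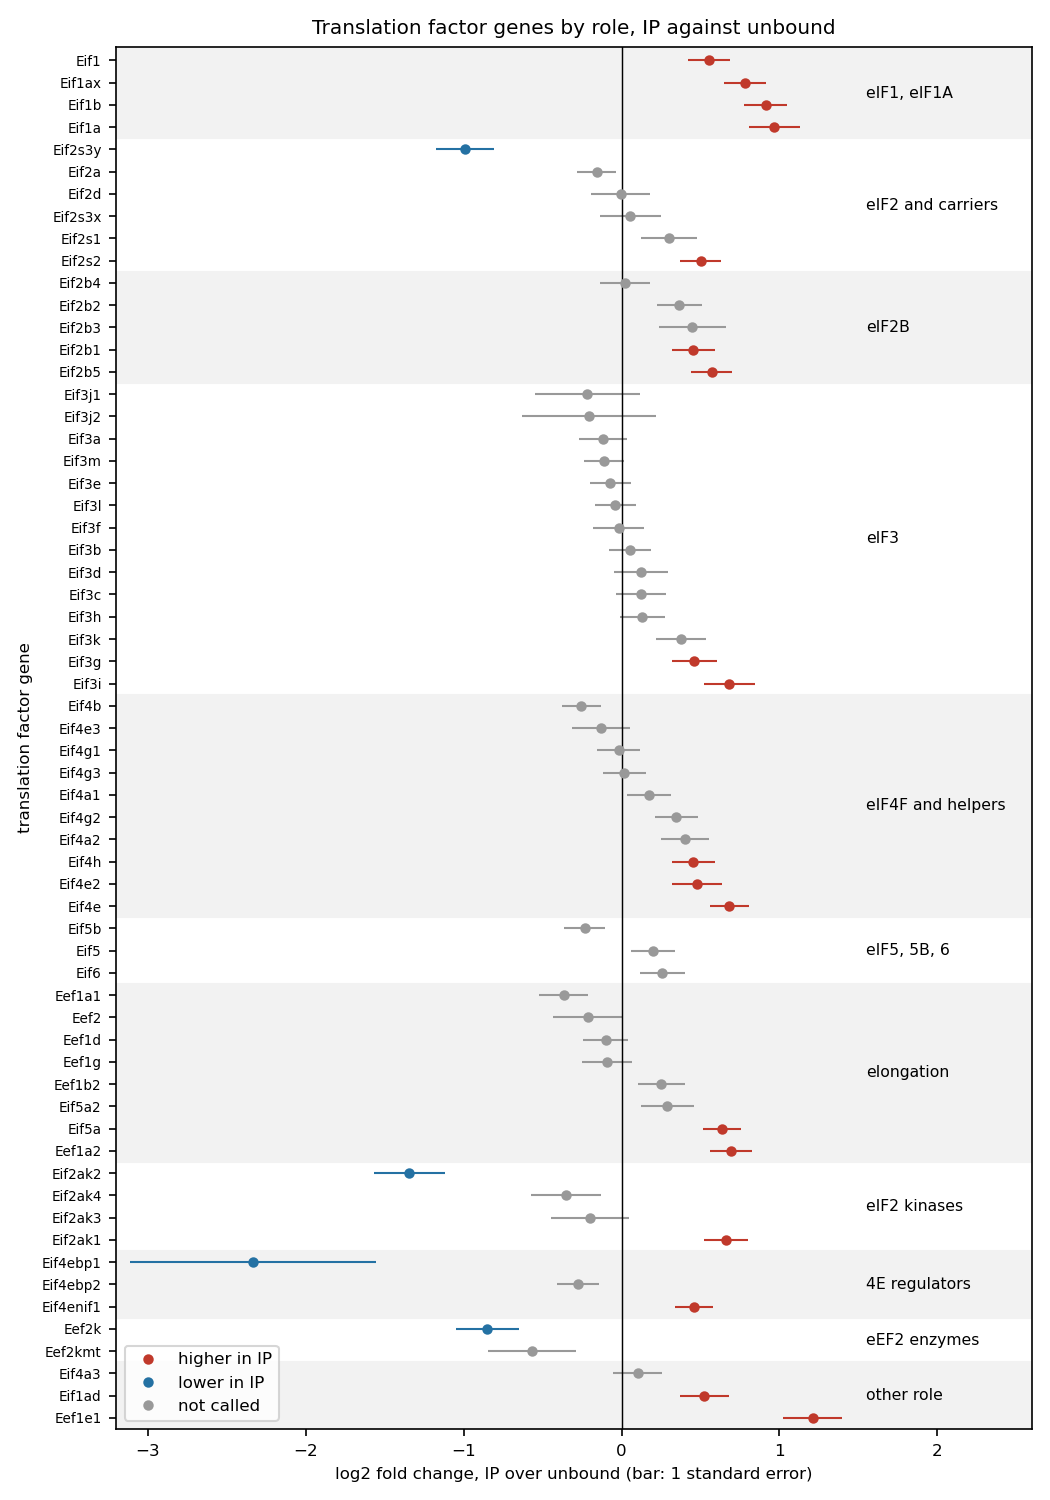
Log2 fold change of IP over unbound for the 62 tested translation factor genes, grouped by role. Points are edgeR estimates from 3 libraries a group, bars are 1 standard error, and colours mark the 18 genes called higher, the 4 called lower and the 40 not called. The 4 eIF1 and eIF1A genes all lie above 0, and Eif4ebp1 and Eif2ak2 lie farthest below it.

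Start codon selection was the role in which every gene rose: 4 of 4, with a median log2 fold change of 0.85. Beside this and the role counts below stand the shares over all genes tested, 21.1% higher and 23.2% lower. Eif1b and Eif1 both encode eIF1. Eif1b stood at 231, 206 and 216 CPM in IP replicates 1 to 3 and at 118, 102 and 126 CPM in the unbound replicates. Every IP library lay above every unbound one, and the log2 fold change was 0.91 ± 0.135 (SE, edgeR adjusted p = 0.00108). Eif1 stood at 175, 158 and 155 CPM in IP and at 123, 110 and 99.5 CPM in unbound RNA. Its groups were also apart, with a log2 fold change of 0.55 (edgeR adjusted p = 0.0102) that became 0.17 and lost its call on the pan-neuronal scale. Eif1a and the X-linked Eif1ax encode eIF1A, which works with eIF1 during scanning. Eif1a stood at 182, 213 and 253 CPM in IP and at 102, 104 and 125 CPM in unbound RNA, 1.96-fold higher in IP (edgeR adjusted p = 0.00185). Eif1ax stood at 89.7, 100 and 86.3 CPM against 51.1, 50.7 and 58.8 CPM, 1.72-fold higher (edgeR adjusted p = 0.00197). Both genes had groups that did not overlap. Of the 50-base words in Eif1 transcripts, 31.6% occur in other genes, so its level is uncertain, whereas Eif1b shares none. An antisense transcript overlaps an exon of Eif1b.

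Among the genes of eIF2 and other carriers of initiator tRNA, 1 of 6 rose and 1 fell. Eif2s3y, the Y-linked gene of the eIF2 gamma subunit, stood at 16.1, 13.5 and 16.1 CPM in IP and at 32.5, 24.03 and 34.4 CPM in unbound RNA. The groups were far apart, and the log2 fold change was -0.99 ± 0.18 (SE, edgeR adjusted p = 0.0028). Its X-linked counterpart Eif2s3x stood at 7.82, 8.61 and 9.15 CPM in IP and at 8.47, 6.92 and 9.21 CPM in unbound RNA. These ranges overlapped (0.06, edgeR adjusted p = 0.832), and 36.2% of the 50-base words of Eif2s3x occur in other genes. Eif2s2, the beta subunit, stood at 65.8, 61.5 and 66.7 CPM against 46.7, 41.4 and 49.0 CPM and rose by 0.50 (edgeR adjusted p = 0.0124), a call lost without unbound replicate 2 (0.44, adjusted p = 0.0555). Eif2s1, the alpha subunit that the stress kinases phosphorylate, had a log2 fold change of 0.30, and Eif2a one of -0.16. Neither passed the test.

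Of the 5 subunits of eIF2B, the exchange factor that reloads eIF2, 2 rose, with a median of 0.45 over the list. Eif2b5, its catalytic subunit, stood at 45.6, 43.7 and 52.0 CPM in IP and at 31.4, 31.5 and 32.2 CPM in unbound RNA (0.57, edgeR adjusted p = 0.00713). Eif2b1 stood at 33.1, 37.6 and 32.1 CPM against 23.8, 26.0 and 25.3 CPM (0.45, edgeR adjusted p = 0.0246). Both had groups that did not overlap. Without IP replicate 2, unbound replicate 1 or unbound replicate 2, Eif2b1 was not called, at 0.40, 0.45 and 0.49 (edgeR adjusted p = 0.0891, 0.0649 and 0.0531). Eif2b2 (0.37) and Eif2b3 (0.45) did not pass, but did without unbound replicate 3, at 0.47 and 0.60 (edgeR adjusted p = 0.0206 and 0.0395), and Eif2b2 also did without IP replicate 3 (0.44, adjusted p = 0.0433).

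The 4 kinases that phosphorylate eIF2 alpha went different ways: 1 rose, 1 fell and 2 did not pass. Eif2ak1, the heme-regulated kinase HRI, stood at 106, 121 and 107 CPM in IP and at 64.6, 65.8 and 80.8 CPM in unbound RNA. IP lay above unbound throughout (0.66, edgeR adjusted p = 0.00569). Eif2ak2, the kinase PKR that double-stranded RNA activates, stood at 2.99, 3.34 and 3.33 CPM in IP and at 6.71, 9.18 and 8.63 CPM in unbound RNA. It was 2.54-fold lower in IP (log2 fold change -1.34 ± 0.22 SE, edgeR adjusted p = 0.00182), with IP libraries nearly equal. Eif2ak3, the kinase PERK of the endoplasmic reticulum, and Eif2ak4, the kinase GCN2 that senses uncharged tRNA, had log2 fold changes of -0.20 and -0.35 with overlapping groups (edgeR adjusted p = 0.536 and 0.222). Exons of Eif2ak1 overlap Aimp2 and Ankrd61 on the opposite strand, and how such reads were counted is not given in the sources used here.

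**Figure D2:**
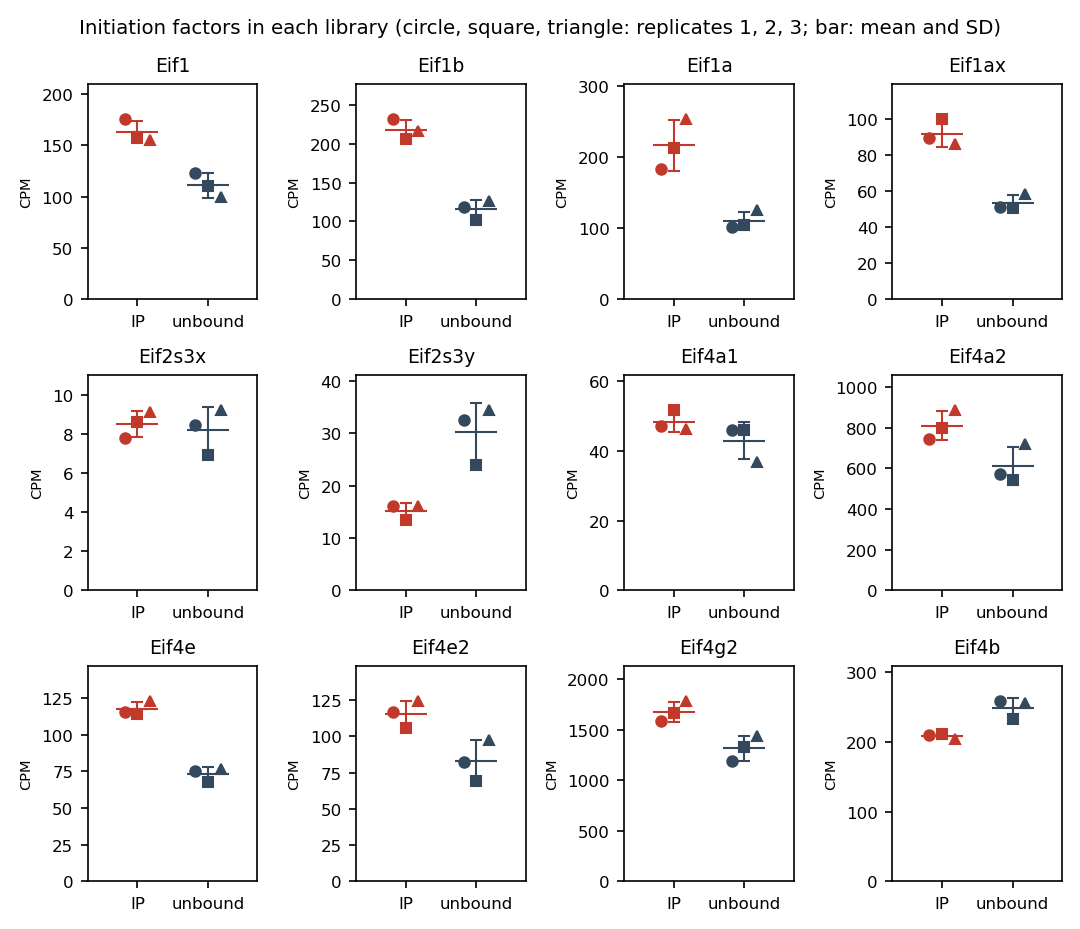
CPM of 12 initiation factor genes in each library, with 3 IP libraries beside 3 unbound libraries. Circles, squares and triangles are replicates 1, 2 and 3, and bars are the mean and SD. The groups are apart for Eif1, Eif1b, Eif1a, Eif1ax, Eif2s3y, Eif4e and Eif4e2 and overlap for Eif2s3x. They are also apart for Eif4a1, Eif4a2 and Eif4g2, with IP above, and for Eif4b, with IP below, genes that were not called.

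The 14 eIF3 genes lay near 0 as a list: 2 rose, none fell and the median log2 fold change was 0.02. Eif3i stood at 213, 181 and 195 CPM in IP and at 124, 99.8 and 143 CPM in unbound RNA (0.68, edgeR adjusted p = 0.00882). Eif3g stood at 80.9, 90.4 and 96.7 CPM against 59.6, 60.8 and 74.3 CPM (0.46, edgeR adjusted p = 0.0288). In both every IP library was above every unbound one. Eif3g was not called without IP replicate 2, unbound replicate 1 or unbound replicate 2, at 0.47, 0.45 and 0.42 (edgeR adjusted p = 0.0746, 0.0694 and 0.0947), nor with the trend in GC content removed (0.36, adjusted p = 0.074). Eif3k (0.38, edgeR adjusted p = 0.0831) did not pass, but did without IP replicate 3 (0.53, adjusted p = 0.0199). Eif3h, at 0.13, did not pass either. Eif3j1 and Eif3j2 share 39.8% and 91.8% of their 50-base words with other genes, so their counts are uncertain.

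Of the cap-binding complex eIF4F and its helpers, 3 of 10 tested genes rose and none fell, with a median of 0.26. Eif4e, the cap-binding protein, stood at 115, 114 and 123 CPM in IP and at 75.3, 67.5 and 76.4 CPM in unbound RNA (0.68, edgeR adjusted p = 0.00267). Eif4h, which stimulates the helicase, stood at 314, 348 and 334 CPM against 217, 240 and 270 CPM (0.45, edgeR adjusted p = 0.0245). Eif4e2, a cap-binding relative of eIF4E that can repress translation, stood at 117, 106 and 124 CPM against 82.3, 69.0 and 97.6 CPM (0.48, edgeR adjusted p = 0.0357). The groups were apart in each. Eif4h lost its call without IP replicate 2, unbound replicate 1 or unbound replicate 2 (0.43, 0.42 and 0.45, edgeR adjusted p = 0.0803, 0.0666 and 0.071) and with the trend in GC content removed (0.36, adjusted p = 0.0537). Eif4e2 kept its call only without unbound replicate 3 among the fits that left out 1 library; in the other 5 it ran from 0.37 (without unbound replicate 2) to 0.55 (without IP replicate 2), with edgeR adjusted p from 0.0536 to 0.118.

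The 2 most abundant initiation factor mRNAs belong to the same complex. Eif4g2, a scaffold relative that does not bind eIF4E, stood at 1585, 1663 and 1777 CPM in IP and at 1187, 1325 and 1435 CPM in unbound RNA. It made up 25.9% ± 0.58 of the summed initiation factor level in IP and 24.9% ± 1.1 in unbound RNA (SD, n = 3). The groups were apart but the test was missed (0.35, edgeR adjusted p = 0.0641). Eif4a2, a gene of the helicase eIF4A, stood at 747, 799 and 885 CPM against 574, 544 and 721 CPM (0.40, edgeR adjusted p = 0.0608), also with groups apart. With the replicate number as a block both passed (0.35 and 0.41, edgeR adjusted p = 0.0316 and 0.0226), as they did without unbound replicate 3 (0.41 and 0.53, adjusted p = 0.0258 and 0.00925) and with the trend in GC content removed (0.38 and 0.46, adjusted p = 0.0477 and 0.0433). Several small RNA genes lie within exons of Eif4a2. Eif4a1, its paralog, stood at 47.2, 51.7 and 46.3 CPM against 46.1, 46.0 and 36.8 CPM (0.17, edgeR adjusted p = 0.348). Eif4b, a helicase cofactor, stood at 210, 212 and 205 CPM in IP and at 258, 233 and 256 CPM in unbound RNA. Its groups were apart with IP below (-0.25, edgeR adjusted p = 0.119), and it passed with library size alone (-0.35, adjusted p = 0.0417) and with DESeq2 (-0.29, adjusted p = 0.0496). Eif4g1, Eif4g3 and Eif4e3 had log2 fold changes of -0.02, 0.02 and -0.13 with overlapping groups (edgeR adjusted p = 0.927, 0.923 and 0.585). Eif4e1b had 0 counts in all 6 libraries.

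Regulators that bind eIF4E again went both ways. Eif4enif1, the transporter 4E-T that carries eIF4E into the nucleus, stood at 92.4, 92.5 and 97.7 CPM in IP and at 69.9, 71.0 and 64.5 CPM in unbound RNA (0.46, edgeR adjusted p = 0.0137). Eif4ebp2, the main 4E-binding repressor of the brain, stood at 43.6, 39.5 and 49.2 CPM against 52.1, 55.3 and 52.6 CPM. Its IP libraries were all below the unbound ones, and the test was missed (-0.28, edgeR adjusted p = 0.123). Eif4ebp1, a repressor released from eIF4E when mTORC1 is active, was scarce: 15, 10 and 1 counts in IP and 47, 53 and 33 counts in unbound libraries. Its log2 fold change was -2.33 ± 0.78 (SE, edgeR adjusted p = 0.0382). Leaving out IP replicate 1, IP replicate 2, unbound replicate 1 or unbound replicate 2 ended the call, at -2.82, -2.61, -2.31 and -2.08 (edgeR adjusted p = 0.0608, 0.07, 0.0921 and 0.12), as did lane as a term (-2.33, adjusted p = 0.0538). Eif4ebp3 had 0 counts in the IP libraries and 2, 3 and 3 in the unbound ones, at or under a floor of 3 counts, and 65.5% of its 50-base words occur in another gene.

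Of the 3 genes of subunit joining none passed the test. Eif5, the GTPase activator of eIF2, was abundant at 430, 355 and 378 CPM in IP and 341, 310 and 363 CPM in unbound RNA, with overlapping groups (0.20, edgeR adjusted p = 0.269). Eif5b, the GTPase of subunit joining, had a log2 fold change of -0.23 with IP below unbound throughout (edgeR adjusted p = 0.172). Eif6, which keeps free large subunits apart from small ones, had one of 0.26 with IP above throughout (edgeR adjusted p = 0.166).

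Among the 8 elongation factor genes 2 rose, none fell and the median was 0.08. Eef1a2, the eEF1A of mature neurons and muscle, stood at 148, 184 and 169 CPM in IP and at 96.3, 106 and 108 CPM in unbound RNA. IP was above unbound throughout, with a log2 fold change of 0.69 ± 0.135 (SE, edgeR adjusted p = 0.00362). Eif5a, the hypusine-bearing factor that eases stalled ribosomes and is counted here with elongation, stood at 181, 184 and 185 CPM against 124, 114 and 116 CPM (0.63, edgeR adjusted p = 0.00304), again with groups apart. Eef1a1, the eEF1A of most other cells, went below: 365, 365 and 321 CPM in IP and 531, 435 and 388 CPM in unbound RNA. The groups did not overlap, and the test was missed (-0.37, edgeR adjusted p = 0.0819). With the replicate number as a block Eef1a1 passed (-0.36, edgeR adjusted p = 0.0391), and so it did without unbound replicate 3 (-0.47, adjusted p = 0.0178), with library size alone (-0.47, adjusted p = 0.038) and with DESeq2 (-0.40, adjusted p = 0.0464). The 50-base words of Eef1a1 are shared with 20 other genes in 59.2% of cases, so part of its reads may lie among those not placed uniquely, which were 43.75% to 45.03% of listed reads in IP and 31.75% to 32.93% in unbound libraries.

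The remaining elongation factors had overlapping groups. Eef2, the translocase, stood at 400, 417 and 502 CPM in IP and at 428, 400 and 698 CPM in unbound RNA, with unbound replicate 3 far above the rest (-0.21, edgeR adjusted p = 0.466). The eEF1B subunit genes Eef1b2, Eef1d and Eef1g had log2 fold changes of 0.25, -0.10 and -0.09 (edgeR adjusted p = 0.199, 0.592 and 0.653), and 64.3% of the 50-base words of Eef1g are shared with other genes. Eif5a2, the paralog of Eif5a, stood at 190, 176 and 186 CPM against 134, 128 and 188 CPM (0.29, edgeR adjusted p = 0.19). It passed without unbound replicate 3 (0.48, edgeR adjusted p = 0.0116).

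**Figure D3:**
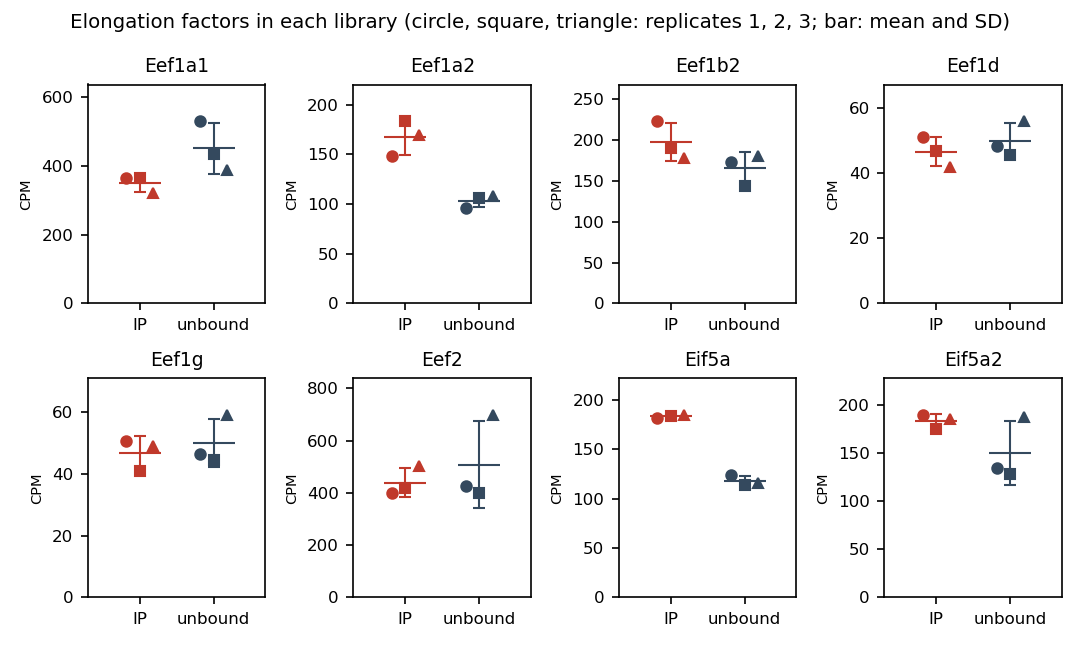
CPM of the 8 elongation factor genes in each library. Circles, squares and triangles are replicates 1, 2 and 3, and bars are the mean and SD of 3 libraries. Eef1a2 and Eif5a lie higher in every IP library, Eef1a1 lies lower, and Eef2 is at 698 CPM in unbound replicate 3.

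The paralogs of eEF1A were compared as a ratio within each library, which does not depend on scaling. Eef1a2 over Eef1a1 was 0.407, 0.503 and 0.527 in IP and 0.181, 0.243 and 0.278 in unbound libraries. The groups did not overlap and the log2 ratio was 1.05 higher in IP. With 3 libraries against 3 the smallest 2-sided p of an exact permutation test is 0.1, and this ratio reached it (exact p = 0.1, 0.133 adjusted over 4 pairs). Per kilobase of exon the ratio of mean levels was 0.571 in IP and 0.274 in unbound RNA, so Eef1a1 stayed the more abundant in both. Eif1b over Eif1 was 1.32, 1.30 and 1.39 in IP against 0.961, 0.933 and 1.26, a log2 difference of 0.36 (exact p = 0.1). Eif5a2 over Eif5a was 1.05, 0.956 and 1.0 in IP against 1.08, 1.12 and 1.62, a log2 difference of -0.33 (exact p = 0.1). Without unbound replicate 3 it was -0.14 (exact p = 0.2). Eif4a2 over Eif4a1 was 15.8, 15.5 and 19.1 against 12.5, 11.8 and 19.6, with overlapping groups (0.23, exact p = 0.4), and this difference ran from 0.10 without unbound replicate 2 to 0.46 without unbound replicate 3.

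Enzymes that act on eEF2 were scarce and lay lower in IP. Eef2k, the kinase that inhibits eEF2, stood at 10.4, 12.9 and 9.00 CPM in IP and at 19.7, 22.1 and 16.4 CPM in unbound RNA. The groups were apart and the log2 fold change was -0.85 ± 0.20 (SE, 1.80-fold lower, edgeR adjusted p = 0.0083). Eef2kmt, a methyltransferase of eEF2, was also below unbound throughout but did not pass (-0.57, edgeR adjusted p = 0.126). An antisense transcript overlaps an exon of Eef2k.

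Of the 3 genes that carry a factor's name but have another main role, 2 rose. Eef1e1, the scaffold AIMP3 of the aminoacyl-tRNA synthetase complex, stood at 54.7, 59.7 and 58.6 CPM in IP and at 26.2, 18.3 and 30.1 CPM in unbound RNA. It had the highest fold change of all translation factor genes tested (1.21 ± 0.19 SE, 2.32-fold, edgeR adjusted p = 0.00132), with groups far apart. Eif1ad stood at 43.5, 31.1 and 37.1 CPM against 26.2, 25.9 and 25.6 CPM (0.52, edgeR adjusted p = 0.0232). It was not called without IP replicate 1, unbound replicate 1 or unbound replicate 2, at 0.41, 0.57 and 0.53 (edgeR adjusted p = 0.0815, 0.0546 and 0.0633). Eif4a3, the helicase of the exon junction complex, had a log2 fold change of 0.10 with overlapping groups (edgeR adjusted p = 0.61).

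**Figure D4:**
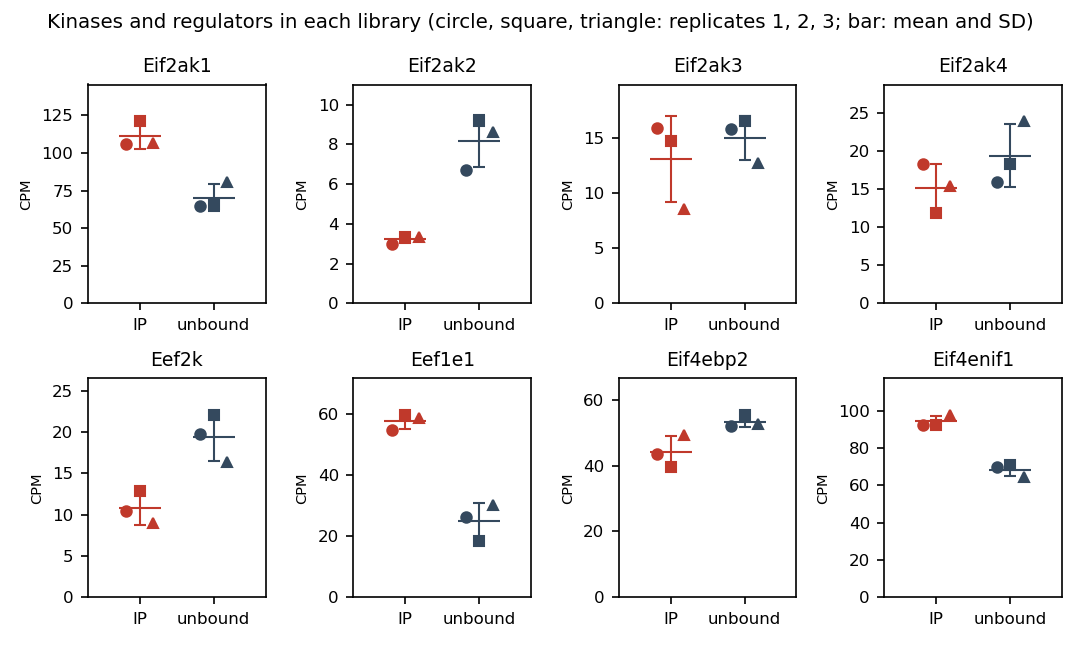
CPM of 8 kinases, regulators and synthetase-complex genes in each library. Circles, squares and triangles are replicates 1, 2 and 3, and bars are the mean and SD of 3 libraries. Eif2ak1, Eef1e1 and Eif4enif1 lie higher in every IP library, and Eif2ak2, Eef2k and Eif4ebp2 lie lower.

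Initiation and elongation factors were then set side by side. Of 42 initiation factor genes tested, 12 rose (28.6%) and 1 fell (2.38%), with a median of 0.15. Of 8 elongation factor genes 2 rose (25.0%) and none fell, with a median of 0.08. Over all genes tested 21.1% were higher and 23.2% lower, and over protein-coding genes 23.5% and 20.7%. The shares that rose were thus near that of protein-coding genes, and the shares that fell were below it. The medians differed by 0.07, and this difference turned to -0.01 without IP replicate 3. It was 0.03 without IP replicate 2, 0.17 without IP replicate 1, 0.11 without unbound replicate 1 and 0.18 without unbound replicate 2. The summed level of initiation factors was 6275, 6399 and 6734 CPM in IP and 5012, 5106 and 5706 CPM in unbound RNA, a ratio of 1.23. That ratio was 0.94 on the pan-neuronal scale. Elongation factors summed to 1610, 1604 and 1631 CPM in IP and to 1582, 1417 and 1793 CPM in unbound RNA, with IP inside the unbound range. Elongation over initiation, which scaling does not touch, was 0.257, 0.251 and 0.242 in IP and 0.316, 0.278 and 0.314 in unbound libraries, so every IP value was below every unbound one. This order rested on Eef1a1: without that gene the ratio was 0.198, 0.194 and 0.195 in IP and 0.21, 0.192 and 0.246 in unbound libraries, and the groups overlapped. A ratio of medians per kilobase, which rests on the middle genes of each list, went the other way. By mean level the middle elongation factors in IP were Eef1b2 and Eif5a, at 78.0 and 77.1 CPM per kilobase. In unbound RNA they were Eif5a and Eef1a2, at 49.7 and 49.6 CPM per kilobase. The median elongation factor stood at 4.75, 4.72 and 4.48 times the median initiation factor in IP and at 3.68, 3.62 and 3.38 times in unbound libraries, again with no overlap. The direction of elongation against initiation thus depended on how the genes were combined.

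**Figure D5:**
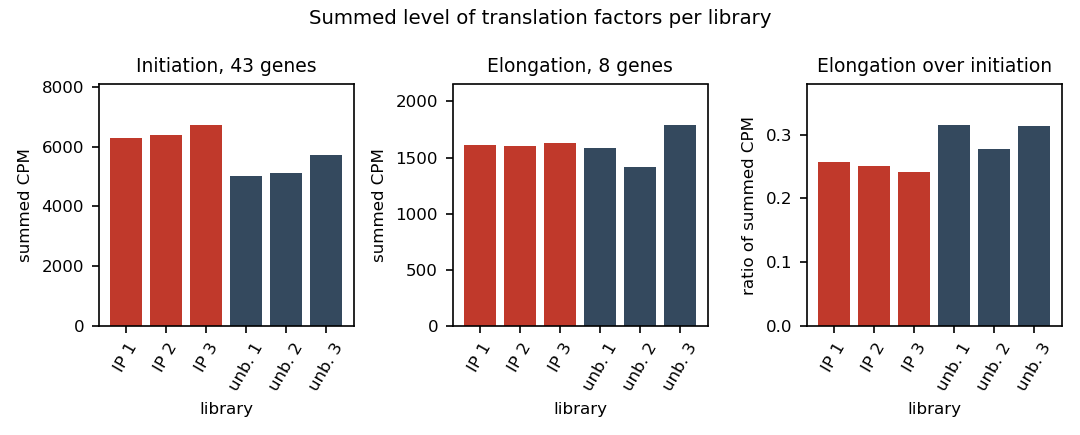
Summed CPM of 43 initiation and of 8 elongation factor genes in each library, and the ratio of the elongation to the initiation sum. Bars are single libraries and start at 0. The ratio is 0.242 to 0.257 in the IP libraries and 0.278 to 0.316 in the unbound libraries, an order that did not hold without Eef1a1.

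Levels between genes were compared per kilobase of exon. In IP the order was Eif1b at 193 ± 11.3, Eif4g2 at 165 ± 9.52, Eif4a2 at 152 ± 13.1, Eef1a1 at 140 ± 10.2 and Eef2 at 132 ± 16.4 CPM per kilobase (SD, n = 3). From Eif4g2 down, each gene's mean ± SD overlapped that of the next, and that of Eif1b lay above Eif4g2. In unbound RNA Eef1a1 led at 181 ± 29.4, followed by Eef2 at 153 ± 49.6, Eif4g2 at 129 ± 12.2, Eif4a2 at 115 ± 17.7 and Eif1b at 103 ± 10.6 CPM per kilobase. There each gene's mean ± SD overlapped that of the next. The same 5 genes led both groups, with Eif1b the first in IP and the fifth in unbound RNA. This order depends on the length used, which counted every annotated exon of a gene. For Eif4a2 that length was 5338 bases against 2708 in its longest transcript, and for Eif1b 1125 against 1035. By the longest transcript Eif4a2 would stand above Eif1b in IP. The order of all genes was not worked out on another length. The level of Eef1a1 is also uncertain, with 59.2% of its 50-base words shared with other genes.

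Translation factor genes were also split by whether a pyrimidine run lay anywhere in the window around the annotated start. Of the 14 with a run 4 rose and 1 fell, with a median log2 fold change of 0.02, and of 36 without one 12 rose and 2 fell, with a median of 0.15. Of all genes tested 21.1% were higher and 23.2% lower. Runs were about as frequent in translation factor windows (24.6%) as in all windows (22.0%), and were found in only 53.8% of ribosomal protein windows. The split therefore does not show which mRNAs mTORC1 controls. Of the genes printed above, Eef1a1, Eif2s3x and Eif2s3y have a run, with log2 fold changes of -0.37, 0.06 and -0.99. Eef1a2, Eef2 and Eif1b have none in this window, with 0.69, -0.21 and 0.91. For Eef1a2 and Eef2 this is uncertain, because their windows end within pyrimidines.

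Other genes of the translation pathway moved in both directions, 38 higher and 9 lower of 157 tested. Beside these and the lists below stand 21.1% higher and 23.2% lower of all genes tested, and 23.5% and 20.7% of protein-coding genes. The share higher was thus near that of protein-coding genes, and the share lower was below it. The counts became 8 and 37 on the pan-neuronal scale, where 7.38% and 35.2% of all genes tested were called. They became 19 higher without unbound replicate 2. Release, recycling and rescue factors had 5 of 12 higher and none lower, among them Mcts1 (0.73) and Denr (0.76), whose products act together in recycling and reinitiation (edgeR adjusted p = 0.00395 and 0.00752). Hypusine and diphthamide synthesis, which modifies eIF5A and eEF2, had 3 of 8 higher and none lower. Dhps and Dohh, the enzymes that make hypusine, rose by 1.11 and 0.91 (edgeR adjusted p = 0.00139 and 0.000775). Cytosolic aminoacyl-tRNA synthetases had 6 of 22 higher and none lower, with Hars at 0.81 and Farsb at 0.75.

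Of 14 genes of the mTORC1 pathway and translation repressors 3 rose and 1 fell. Rheb, the GTPase that activates mTORC1, rose by 0.95 and Rptor, a subunit of mTORC1 that binds its substrates, by 0.79, and Rps6kb2, an S6 kinase gene, fell by 0.99 (edgeR adjusted p = 0.0014, 0.00375 and 0.0124). Of 10 tested genes of the integrated stress response 3 rose and none fell. Impact, an inhibitor of the kinase GCN2, stood at 1312, 1458 and 1421 CPM in IP and at 510, 473 and 767 CPM in unbound RNA (1.26, edgeR adjusted p = 0.00135). Chac1, a stress-induced enzyme that degrades glutathione, rose by 1.10 (edgeR adjusted p = 0.00272). Of 6 poly(A)-binding proteins and partners 2 rose and 2 fell. Pabpc1, which binds the poly(A) tail and eIF4G, fell by 1.15, and Paip2, its inhibitor, rose by 0.81 (edgeR adjusted p = 0.000787 and 0.00843). Mitochondrial translation factors had 3 of 10 higher and 2 lower, with Tsfm, the exchange factor of mitochondrial EF-Tu, at 0.92 and Guf1, a mitochondrial elongation factor, at -1.44. Cytosolic ribosomal proteins had 13 of 75 higher and 4 lower, with a median of 0.16. Those with the smallest adjusted p were Rpl9 at -1.57 and Rpl15 at 0.56, and many ribosomal protein genes have near-identical copies that leave their counts uncertain.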

How the data were processed

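RNA-seq libraries of IP and unbound RNA, 3 each, were analysed from the deposited read counts per gene, which the authors made with STAR 2.0.0e and HTSeq on mm10, per the submitters' processing notes. Which annotation, strand setting and rule for overlaps they used is not given in the sources used here. Entries that name no gene, 52.29% to 54.98% of listed reads, were left out. The main test was that of edgeR 4.0.16, run in R 4.3.3 (TMM, filterByExpr with a minimum count of 10 and a total of 15, robust quasi-likelihood fit on group alone, Benjamini-Hochberg threshold 0.05). The code was tested on simulated data. Alternatives used DESeq2 1.42.0, limma 3.58.1 (voom), other scalings and filters, GC content, lane (4 for replicate 2, 2 for the others), a replicate block, and leaving out libraries. Same-numbered libraries deviated together (correlations 0.139, 0.164 and 0.206 over genes, all above 0.1), against -0.165 to 0.0435 between libraries of other numbers. The replicate numbers were therefore taken as pairs in the replicate block and in the paired ratios, but not in the main test. For replicate 2 a shared deviation cannot be told apart from lane. Named genes were all elongation factors and paralogs, up to 4 per other role by smallest adjusted p, those called against their list or at 1000 CPM or more, and in pathway lists up to 2 plus 1 called the other way. Eif2s3x, Eif4b, Eif4e1b, Eif4ebp3, Eif3j1 and Eif3j2 were named after their values were seen. The members and lists were chosen with earlier results of these data known. Positions and exon lengths came from GENCODE M21 (GRCm38, which is mm10), where 64 of 64 members matched, and start windows from RefSeq GRCm38.p6. Shared words of 50 bases were counted over GENCODE transcripts.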

Additional observations from a re-analysis of the deposited data

How the results depend on the processing

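Of 1301 refitted values of single translation factor genes, 1073 kept direction and call, 83 changed sign without being called in either fit, 65 gained a call, 67 lost one and 13 changed sign with a call in at least 1 fit. Of the 83, 29 came with the pan-neuronal scalings and 54 with other alternatives. The 13 came with pan-neuronal scaling (Eif4g3 -0.37) and with that scaling without Snhg11, chosen after seeing the data (Eif2b1 -0.055, Eif2b4 -0.49, Eif2s2 -0.01, Eif3b -0.45, Eif3c -0.39, Eif3g -0.049, Eif3h -0.38, Eif4a3 -0.40, Eif4e2 -0.032, Eif4enif1 -0.052, Eif4g3 -0.49, Eif4h -0.053). The latter moved the median of all genes to -0.52. Translation factors counted 4 higher and 20 lower with pan-neuronal scaling, and 3 and 28 without Snhg11. They counted 5 and 3 in lane 2 alone (fewer samples), and 12 to 23 higher and 3 to 5 lower without 1 library. Other pathway genes counted 8 and 37, 4 and 55, and 11 and 2 in these settings, and 19 to 50 higher and 6 to 12 lower without 1 library. The initiation median was 0.12 with RLE scaling and with DESeq2, 0.054 with library size alone, -0.24 and -0.36 with the pan-neuronal scalings, 0.196 with no filter, 0.116 with a 1 CPM filter, and 0.148 to 0.248 without 1 library. The elongation median was -0.017 with library size alone, -0.30 and -0.43 with the pan-neuronal scalings, 0.208 without the third pair, -0.10 with the split by name, and 0.004 to 0.198 without 1 library. Their difference was -0.045 without the third pair, 0.232 with the split by name, and -0.012 to 0.177 without 1 library. The ratio of initiation sums was 1.15 with library size alone and 0.94 and 0.862 with the pan-neuronal scalings. That of elongation sums was 0.99 with RLE, 0.945 with library size alone, 0.775 and 0.71 with the pan-neuronal scalings, and 1.10 without Eef1a1. The cause of these shifts was not tested. With the replicate block 20 translation factors were higher and 5 lower, Eif4a2, Eif4g2 and Eef1a1 being added and no other call changed, the medians differed by 0.077, and 41 other pathway genes were higher and 11 lower. With 3 pairs the smallest 2-sided exact p is 0.25. Paired by number, the exact p was 0.25 for the log2 ratios Eef1a2 over Eef1a1 (1.05), Eif1b over Eif1 (0.36) and Eif5a2 over Eif5a (-0.33) and 0.5 for Eif4a2 over Eif4a1 (0.23). Without 1 library these ran from 0.873 to 1.18, 0.279 to 0.499, -0.43 to -0.14 and 0.097 to 0.461. Depth limits Eif4ebp1, Eif4ebp3 and Eif4e1b.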
